A study of Triticum urartu with 18 samples.

Results

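WRKY genes were followed in the grain and flag leaf of Triticum urartu, a wild diploid wheat and the source of the A genome of bread wheat. The members are the rows that the authors' table annotates as WRKY, 72 of 27121 genes, and no measured value entered that choice. All samples came from untreated, field-sown plants of accession PI 428198, labelled wild type. Endosperm was sampled 5, 10, 15, 20 and 25 days after flowering (days post anthesis, DPA), and flag leaf once, at 10 DPA. Each of these 6 groups has 3 RNA-Seq libraries, which the labels call independent biological replicates. Per the labels, embryo, aleurone, seed coat and pericarp had been removed from the endosperm. How many grains or leaves went into a library is not given in the sources used here. Columns of the table name the group but no individual sample, so libraries are numbered by column.

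WRKY factors are plant transcription factors named after a conserved stretch of their DNA-binding domain, and they bind W-box elements in promoters. They are best known from defence and from leaf senescence. In grain, a sugar-induced WRKY factor of barley endosperm binds the promoter of an isoamylase gene. Rice WRKY factors counter the action of the transcription factor GAMYB in aleurone cells, and a WRKY gene of Arabidopsis is needed for growth of the young endosperm. The table gives each member an identifier and the family name only, so no role is given here to a single member. None of the 72 identifiers matched the RefSeq gene table of the species, and no sequence or position was used.

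Values are FPKM, read fragments scaled to transcript length and to the mapped fragments of a library, so levels of different genes can be compared per length. Read depth is not known, and a value of 0 is described as listed at 0. Changes are differences of log2(FPKM + 1), which understates the change of low genes, with the standard error (SE) of a limma fit. Called genes had a Benjamini-Hochberg adjusted p (over all genes tested) under 0.05 together with a log2 change of 1 or more in either direction. Only genes that reached 1 FPKM in 3 or more libraries of a fit were tested. Of the 72 members, 34 were tested in both the endosperm and the leaf fit, 8 in the endosperm fit only, 7 in the leaf fit only and 23 in neither. The 23 untested members reached at most 2.79 FPKM in endosperm and 17.35 FPKM in leaf, and 20 of them stayed under 5 FPKM in every library.

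The libraries differed in how few genes filled them. Genes above 0 numbered 21372 to 21594 at 5 DPA, 9328 to 11010 at 20 DPA, and 10644, 17135 and 17237 in 25 DPA libraries 1, 2 and 3. The 12 most abundant genes of the table took 83.2% to 86.1% of the total FPKM at 20 DPA and 85.4%, 44.5% and 45.7% in the 25 DPA libraries. In leaf they took 67.9%, 43.4% and 39.9%. A rise of such genes can lower the FPKM of all others, so each comparison was repeated after median-ratio scaling, which sets the median ratio of genes detected in all libraries to a common value. The median log2 change over all genes tested was -1.23, -0.65, -1.09 and 1.00 for the 4 successive intervals as deposited, and -0.14, -0.19, -0.30 and 0.16 after scaling. In bulk samples, fewer cells of a type and less RNA per cell cannot be told apart. Storage prolamins, which define starchy endosperm, had 21 of 21 genes above 0 in every endosperm library after 5 DPA, and 1 to 3 of 21 at 0 in those of 5 DPA. The leaf libraries had 11, 6 and 8 prolamin genes at 0. Detection alone hides large differences in level. Prolamins took at least 17.11% of the total FPKM in each 10 DPA library and at least 20.43% in each of 15 DPA. They took 0.89% to 1.28% at 20 DPA, and 0.38%, 12.14% and 1.99% in 25 DPA libraries 1, 2 and 3. Whether the amount of starchy endosperm differed between these libraries was not tested.

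WRKY transcripts were most abundant in young endosperm and in flag leaf. The summed FPKM of the 72 members was 517, 496 and 549 in the 5 DPA libraries, 177, 165 and 167 at 10 DPA, and 120, 116 and 105 at 15 DPA. At 20 DPA the sum was 13.2, 24.35 and 11.2 FPKM. The 25 DPA libraries held 18.2, 198 and 259 FPKM, so library 1 lay among those of 20 DPA and libraries 2 and 3 above those of 15 DPA. Leaf libraries 1, 2 and 3 held 380, 795 and 1365 FPKM. As a share of the FPKM outside the 12 most abundant genes, the family averaged 0.0531% ± 0.00280 in 5 DPA endosperm and 0.0176% ± 0.000658 in that of 10 DPA (SD, n = 3). The means were 0.0124% ± 0.00132 for 15 DPA and 0.00295% ± 0.00128 for 20 DPA (SD, n = 3). Libraries 1 to 3 of 25 DPA gave 0.00346%, 0.0193% and 0.0255%, and those of leaf 0.0387%, 0.0739% and 0.124%.

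**Figure D1:**
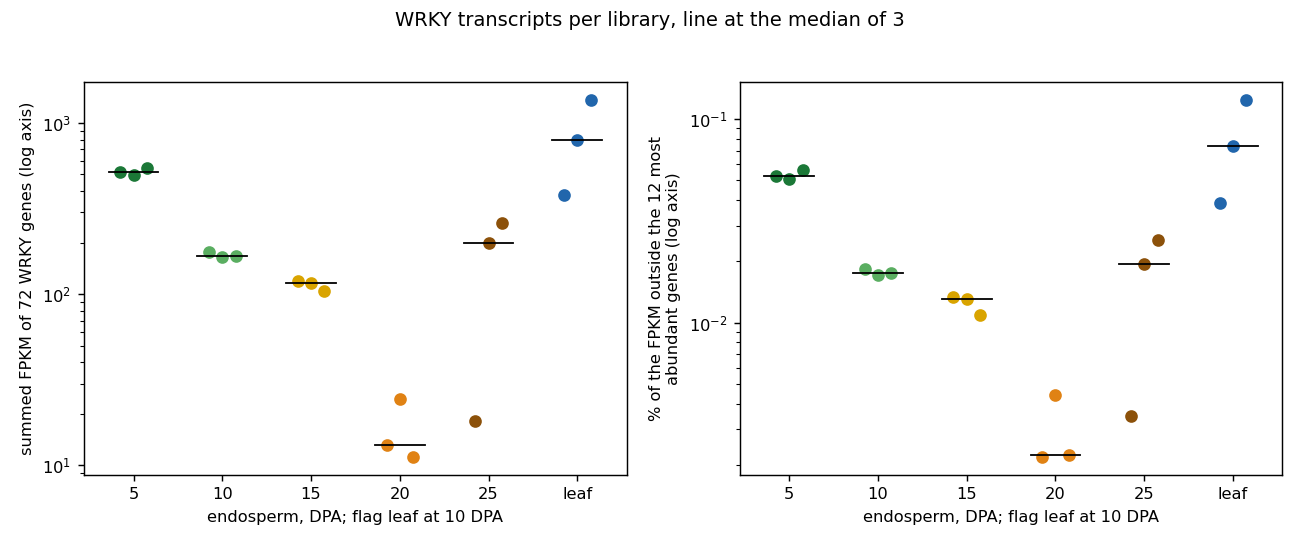
Summed FPKM of the 72 WRKY genes (left) and its percentage of the FPKM outside the 12 most abundant genes (right), on log axes, for 3 libraries of each endosperm stage and of flag leaf; lines mark medians. The 20 DPA libraries and 25 DPA library 1 lie lowest on both scales.

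Members with higher levels were most numerous at 5 DPA and in leaf. At 5 DPA, 23 members had a mean of 10 FPKM or more, followed by 4 members, 2, 0 and 4 for the stages from 10 to 25 DPA. In leaf 21 members reached that level. The highest endosperm mean belonged to TRIUR3_22206 at 5 DPA (67.2 FPKM) and the highest leaf mean to TRIUR3_17462 (80.1 FPKM). Across the table, 100 FPKM or more in any library was reached by 4 of 72 members (5.56%) and by 11.2% of all genes. Of 45 members with a stage mean of at least 1 FPKM in endosperm, 33 (73.3%) had their highest endosperm mean at 5 DPA, 4 at 10 DPA, none at 15 or 20 DPA, and 8 (17.8%) at 25 DPA. Among all genes with such a mean, 81.6% were highest at 5 DPA and 9.22% at 25 DPA.

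**Figure D2:**
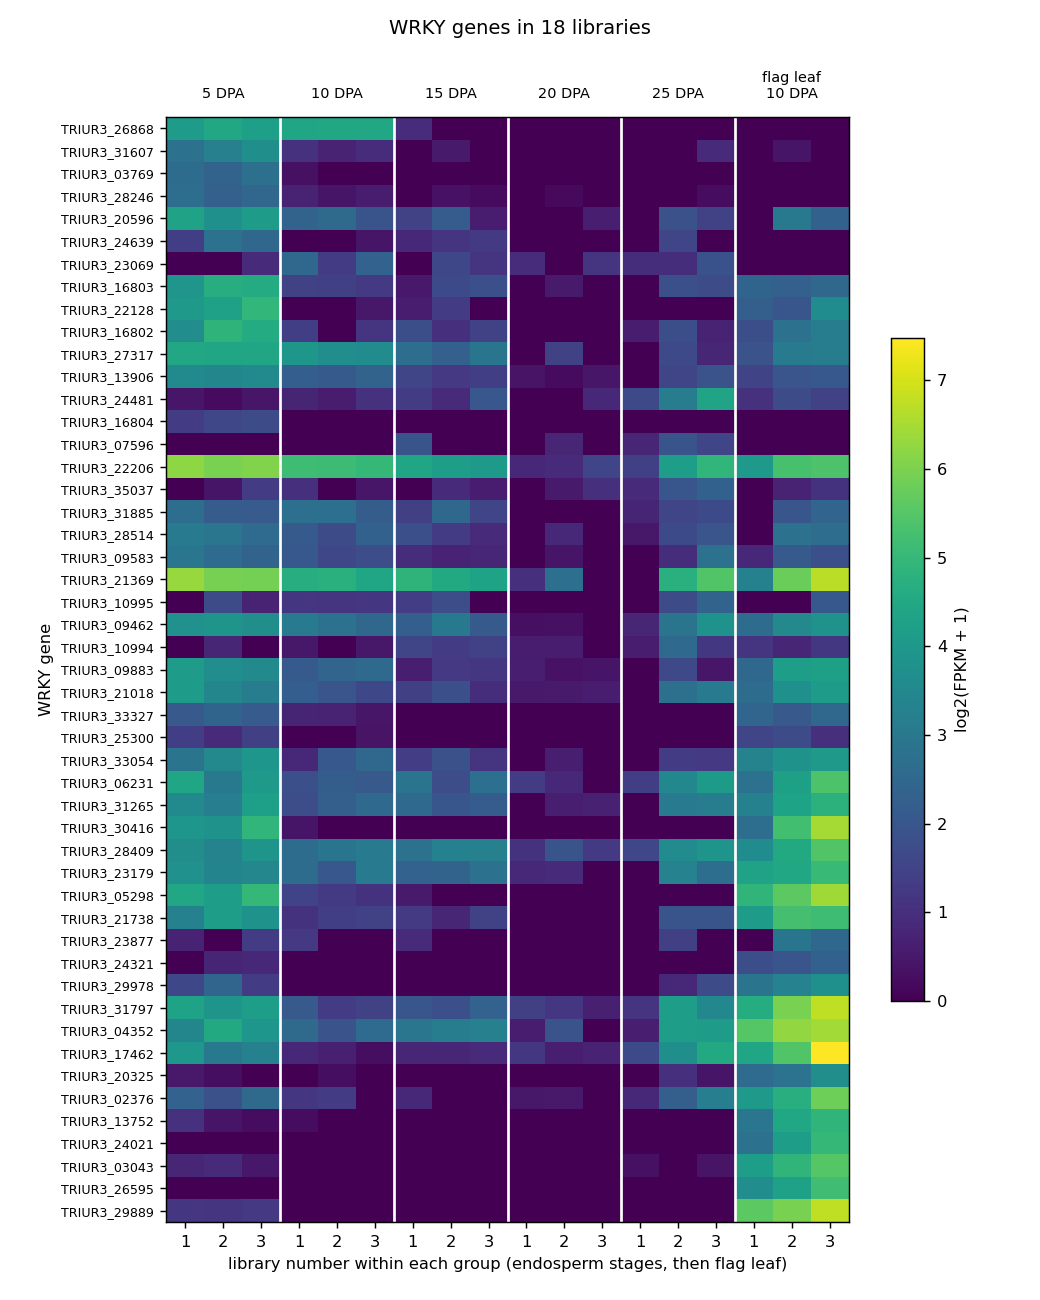
log2(FPKM + 1) of the 49 WRKY genes tested in at least 1 fit (rows) in 18 libraries (columns, grouped by endosperm stage and flag leaf), ordered from genes lowest in leaf relative to their highest endosperm stage (top) to those highest in leaf (bottom). TRIUR3_26868 is high at 5 and 10 DPA only, and genes near the bottom, such as TRIUR3_29889, are near 0 after 5 DPA and high in leaf.

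The F-test over the 5 stages called 40 of the 42 tested members, and 91.8% of all 19418 genes tested were called. The 2 tested members that were not called were TRIUR3_10995 (adjusted p = 0.195) and TRIUR3_23877 (adjusted p = 0.635). After median-ratio scaling 20 of 35 tested members were called, with 53.2% of all genes tested.

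TRIUR3_26868 was expressed at 5 and 10 DPA and was at or near 0 in the other libraries. Its FPKM was 16.59, 21.39 and 17.54 at 5 DPA and 20.58, 20.78 and 21.22 at 10 DPA. It was 0.92, 0 and 0 at 15 DPA, and it was listed at 0 in all libraries of 20 DPA, 25 DPA and flag leaf. The 15 DPA libraries lay far below those of 10 DPA, and the log2 change was -4.14 (SE 0.30, adjusted p = 1.85e-07 in limma), or -3.48 relative to the median of all genes. The call held in all 22 alternatives run, with adjusted p from 3.49e-08 to 3.88e-05. Between 10 and 5 DPA the libraries overlapped, and the log2 change was 0.17 (SE 0.30, adjusted p = 0.629). After median-ratio scaling that change was 1.25 and was called.

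The annotated gene whose profile over the 15 endosperm libraries was most like that of TRIUR3_26868 was the NAC gene TRIUR3_09915, with a Pearson r of 0.996 on the log2 scale among 1137 annotated genes compared. It averaged 23.2 FPKM at 5 DPA, 27.4 at 10 DPA and 0.58 at 15 DPA, and 3.61 in leaf. The NF-YB gene TRIUR3_23146 (r = 0.983) and the MYB gene TRIUR3_25784 (r = 0.979) followed. TRIUR3_25784 averaged 68.2 and 27.8 FPKM at 5 and 10 DPA and was listed at 0 from 15 DPA on. These libraries share stage and composition, so the correlations describe profiles only.

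**Figure D3:**
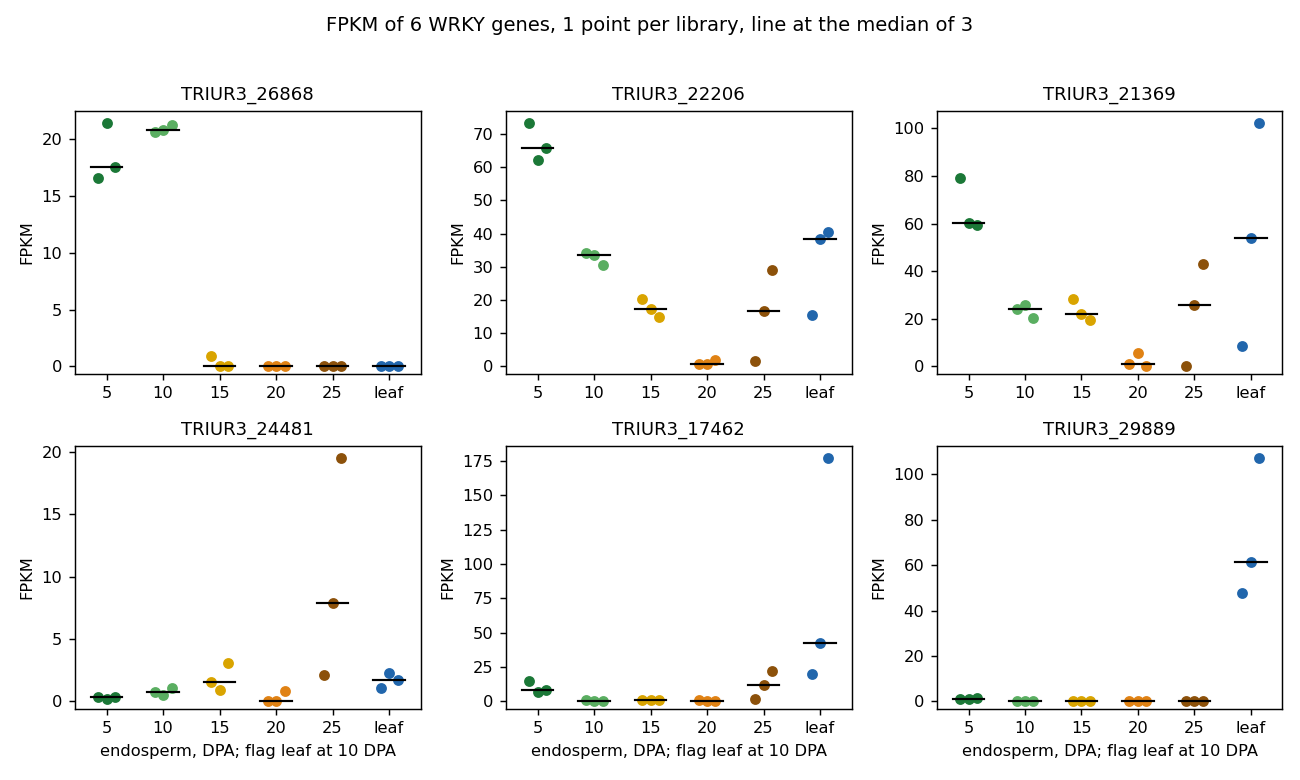
FPKM of 6 WRKY genes (linear axes, 1 point per library, line at the median of 3) at 5 endosperm stages and in flag leaf. TRIUR3_26868 has 16.59 to 21.39 FPKM at 5 and 10 DPA and at most 0.92 elsewhere, TRIUR3_24481 is highest at 25 DPA, and TRIUR3_17462 and TRIUR3_29889 are highest in leaf.

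Between 5 and 10 DPA, as the grain enters filling, most tested WRKY genes that were called fell. Of the 42 tested members 23 fell (54.8%), 1 rose (2.38%) and 18 were not called, and 30 of the 72 were not tested. Members under 1 FPKM in all later endosperm libraries, such as TRIUR3_30416, passed the filter through 5 DPA alone. Their falls from 5 DPA followed from the filter. Among all genes tested 45.6% were called lower and 3.16% higher, and the median log2 change was -1.46 for the tested members and -1.23 for all genes. All 10 DPA libraries lay below all 5 DPA libraries for 33 of the 42 tested members and for 73.4% of all genes tested. After median-ratio scaling 6 of 35 tested members were called lower and 1 higher, with 7.84% and 5.6% of all genes tested. Without 5 DPA library 1, 14 members were called in place of 24. The filter stayed at 3 libraries, so members reaching 1 FPKM only in the 5 DPA libraries were then untested. With no library left out, 48.7% of all genes tested were called in either direction.

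The strongest falls were of genes well expressed at 5 DPA and near 0 at 10 DPA. TRIUR3_22128 had 0, 0 and 0.41 FPKM at 10 DPA, against 15.57, 18.53 and 30.14 at 5 DPA, a log2 change of -4.27 (SE 0.33, adjusted p = 1.42e-07). TRIUR3_30416 had 0.35, 0 and 0 FPKM at 10 DPA, against 14.35, 13.26 and 29.37 at 5 DPA (log2 change -4.09, SE 0.27). TRIUR3_05298 had 1.84, 1.40 and 1.12 FPKM at 10 DPA, against 21.21, 17.19 and 30.48 at 5 DPA (log2 change -3.26, SE 0.27). In none of these genes did the groups overlap. Relative to the median of all genes their log2 changes were -3.04, -2.86 and -2.03, and all 3 were also called after median-ratio scaling.

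TRIUR3_16802 and TRIUR3_16803 carry consecutive identifiers and fell alike. TRIUR3_16802 had 1.59, 0 and 1.22 FPKM at 10 DPA, against 11.71, 27.95 and 23.33 at 5 DPA (log2 change -3.53, SE 0.44). TRIUR3_16803 had 1.75, 1.66 and 1.42 FPKM at 10 DPA, against 13.81, 24.22 and 23.42 at 5 DPA (adjusted p = 0.000132), a log2 change of -1.77 relative to the median of all genes. That call was lost after scaling (log2 change -1.57). Over the 15 endosperm libraries the profiles of this pair had a Pearson r of 0.922. How reads were divided between similar genes is not given, so the values of such a pair may not be independent. The next identifier, TRIUR3_16804, was listed at 1.49, 2.04 and 2.36 FPKM at 5 DPA and at 0 in every other library.

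The most abundant members changed less. TRIUR3_22206 had 34.28, 33.56 and 30.71 FPKM at 10 DPA, against 73.41, 62.26 and 65.78 at 5 DPA. The groups did not overlap, but the log2 change of -1.01 (SE 0.68, adjusted p = 0.214) was not called, with a spread estimated from all 5 stages. TRIUR3_21369 had 24.03, 25.92 and 20.30 FPKM at 10 DPA, against 79.02, 60.28 and 59.41 at 5 DPA (log2 change -1.46, SE 1.06, adjusted p = 0.245). The member that rose was TRIUR3_23069, with 4.76, 1.49 and 4.10 FPKM at 10 DPA, against 0, 0 and 0.86 at 5 DPA (log2 change 1.77, SE 0.47, adjusted p = 0.00677), and it was not called after scaling.

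Transcripts abundant in green tissue also fell over this interval, as did most genes. For 73.4% of all genes tested, all 10 DPA libraries lay below all 5 DPA libraries. The 84 genes with at least 1000 FPKM in leaf and at least 10 times their 15 DPA mean had medians of 125, 101 and 95.7 FPKM per library at 10 DPA, against 510, 468 and 452 FPKM at 5 DPA. They made up 0.852% to 1.25% of the total at 10 DPA, against 4.24% to 7.20% at 5 DPA, and 2 to 7 of the 84 were at 0 at 10 DPA, against 0 or 1 at 5 DPA. The rule for these genes favours ones low at 15 DPA, so a fall within endosperm is partly built into the list. None of the 72 members is in that list, and the part of green tissue in the WRKY changes was not tested. No row of the table is named as a marker of aleurone, embryo or seed coat.

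**Figure D4:**
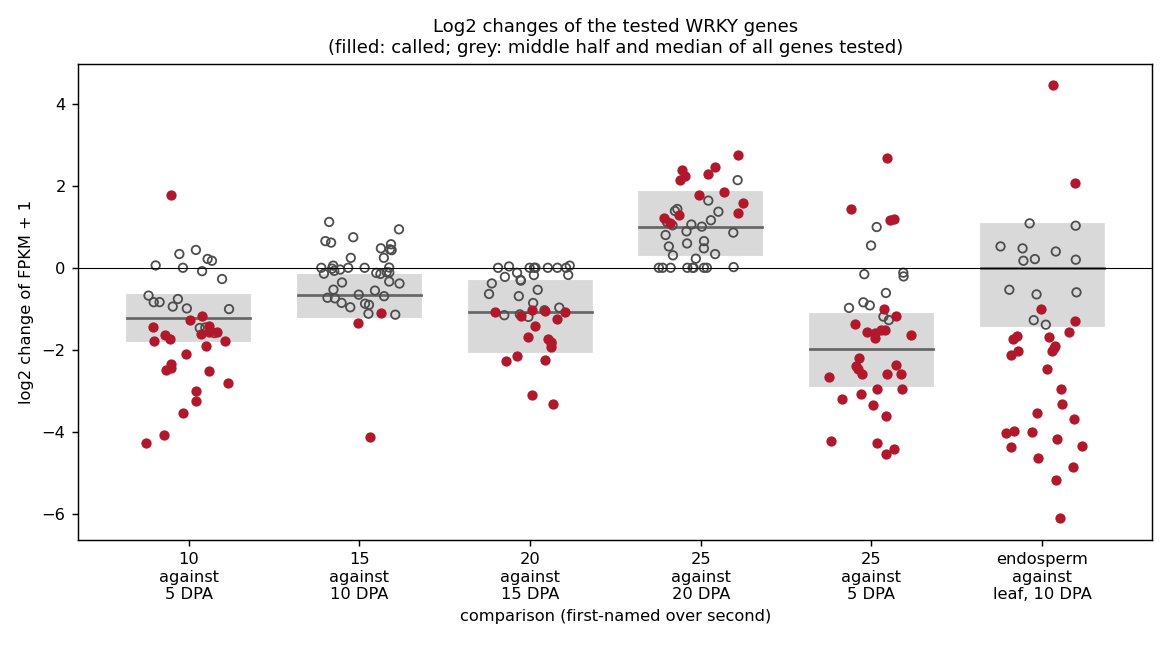
Log2 change of FPKM + 1 for each tested WRKY gene (points; filled where called) in 6 comparisons, with the median and quartiles of all genes tested in grey. Most WRKY genes lie above the grey median at 15 against 10 DPA and around it in the other endosperm comparisons. In endosperm against flag leaf most lie below it.

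Between 10 and 15 DPA few members were called. Among the 42 tested members there were 3 falls (7.14%) and 0 rises (2 members were higher by limma at an unadjusted p under 0.05), while 16.7% of all genes tested were called lower and 1.28% higher. The median log2 change of the tested members was -0.12, and that of all genes was -0.65. Beside TRIUR3_26868, the falls were those of TRIUR3_09883, with 0.54, 1.36 and 1.27 FPKM at 15 DPA, against 3.32, 4.43 and 4.93 at 10 DPA, and of TRIUR3_05298, with 0.45, 0 and 0 FPKM at 15 DPA, against 1.84, 1.40 and 1.12 at 10 DPA. In both genes the groups did not overlap. After median-ratio scaling TRIUR3_26868 alone was called, with 7.86% of all genes tested called lower and 3.76% higher. The abundant TRIUR3_22206 had 20.25, 17.35 and 15.02 FPKM at 15 DPA, against 34.28, 33.56 and 30.71 at 10 DPA. Its groups did not overlap, but the log2 change of -0.88 (SE 0.68, adjusted p = 0.384 in limma) was not called. TRIUR3_21369 stood at 28.27, 22.07 and 19.38 FPKM at 15 DPA, overlapping its 10 DPA libraries (log2 change -0.02, SE 1.06). Without 25 DPA library 1, 5 members were called in place of 3. With no library left out, 17.9% of all genes tested were called in either direction.

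Between 15 and 20 DPA members that fell included the most abundant ones. Among the 42 tested members there were 17 falls (40.5%) and 0 rises (by limma 0 were higher at an unadjusted p under 0.05), a share close to that over the table, where 43% of all genes tested were called lower and 0.69% higher. That closeness depended on the filter. Without it 9 of 67 tested members were called lower, with 7509 of 26445 genes. TRIUR3_22206 had 0.80, 0.85 and 1.95 FPKM at 20 DPA, against 20.25, 17.35 and 15.02 at 15 DPA (log2 change -3.10, SE 0.68, adjusted p = 0.00378). TRIUR3_21369 had 1.06, 5.68 and 0 FPKM at 20 DPA, against 28.27, 22.07 and 19.38 at 15 DPA (log2 change -3.32, SE 1.06, adjusted p = 0.0202). TRIUR3_27317 had 0, 1.74 and 0 FPKM at 20 DPA, against 5.45, 3.88 and 6.52 at 15 DPA (log2 change -2.14, SE 0.47). In each of these genes every 20 DPA library lay below every 15 DPA library.

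Relative to the median of all genes, TRIUR3_22206 fell by 2.02 on the log2 scale, and it was also called after median-ratio scaling (log2 change -1.01). The calls of TRIUR3_21369 and TRIUR3_27317 were lost after scaling, with log2 changes of -1.69 and -1.40. TRIUR3_04352 had 0.52, 2.75 and 0 FPKM at 20 DPA, against 6.69, 7.85 and 8.62 at 15 DPA (log2 change -2.28, SE 0.77), and its call too was lost (log2 change -0.86). TRIUR3_28409 had 1.15, 2.86 and 1.41 FPKM at 20 DPA, against 6.04, 8.80 and 8.52 at 15 DPA, a log2 change of -1.68 (SE 0.52) that was called as deposited and turned to 0.60 after scaling. TRIUR3_17462 had 1.30, 0.55 and 0.63 FPKM at 20 DPA, against 0.75, 0.76 and 0.89 at 15 DPA. Its log2 change was -0.00085 as deposited and 1.85 after scaling, where it was called higher.

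After scaling, 6 of 35 tested members were called lower and 1 higher between 15 and 20 DPA, with 13.7% and 4.7% of all genes tested. The count of 17 (43.7% of all genes tested were called in either direction) became 7, 6 and 10 without 15 DPA library 1, 2 or 3, and 7, 11 and 5 without 20 DPA library 1, 2 or 3. Without 10 DPA library 2 it was 11. The call of TRIUR3_22206 held in all 22 alternatives. TRIUR3_04352 lost its call without 15 DPA library 1, 2 or 3 or 20 DPA library 1 or 3 (highest adjusted p of these 0.106), and TRIUR3_21369 without 15 DPA library 1 or 2 or 20 DPA library 1 or 3 (highest 0.0873). TRIUR3_28409 lost its call without 15 DPA library 2 or 20 DPA library 1 or 3 (highest 0.0697). With a pseudocount of 5 the calls of TRIUR3_04352, TRIUR3_27317 and TRIUR3_28409 were also lost (log2 changes -1.09, -0.89 and -0.91).

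At 25 DPA several members were detected again in libraries 2 and 3. Against 20 DPA, 13 of the 42 tested members (31.0%) were called higher and 0 lower (by limma none was lower at an unadjusted p under 0.05), a share near the background of 35.3% of all genes tested called higher and 0.154% lower. Without a filter 10 of 67 tested members were called higher, with 5648 of 26445 genes. TRIUR3_24481 had 2.12, 7.85 and 19.49 FPKM at 25 DPA, against 0, 0 and 0.83 at 20 DPA (log2 change 2.76, SE 0.52, adjusted p = 0.00882). TRIUR3_17462 had 2.16, 12.29 and 22.12 FPKM at 25 DPA, against 1.30, 0.55 and 0.63 at 20 DPA (log2 change 2.46, SE 0.55, adjusted p = 0.0116). TRIUR3_09462 had 0.75, 6.29 and 13.38 FPKM at 25 DPA, against 0.24, 0.26 and 0 at 20 DPA (log2 change 2.29, SE 0.57). In these genes the groups did not overlap, and 25 DPA library 1 lay closest to those of 20 DPA.

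The most abundant members followed the same libraries. TRIUR3_22206 had 1.67, 16.77 and 29.05 FPKM at 25 DPA, against 0.80, 0.85 and 1.95 at 20 DPA, a called log2 change of 2.39 (SE 0.68) although the groups overlapped. TRIUR3_21369 had 0, 25.75 and 42.88 FPKM at 25 DPA, against 1.06, 5.68 and 0 at 20 DPA, and was not called (log2 change 2.14, SE 1.06, adjusted p = 0.119). TRIUR3_06231 had 1.59, 10.15 and 15.87 FPKM at 25 DPA, against 1.53, 0.82 and 0 at 20 DPA (log2 change 2.24, SE 0.62).

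The number of calls at 25 against 20 DPA changed with single libraries. The 13 calls stand beside 35.4% of all genes tested, counting both directions. Without 25 DPA library 2 or 3, 1 member was called in each case, without 20 DPA library 1 or 3 there were 3 and 4, and without 25 DPA library 1 there were 27. With the compared groups fitted alone 0 were called by limma, and 4 had an unadjusted p under 0.05. TRIUR3_17462, TRIUR3_09462 and TRIUR3_06231 lost their calls without 25 DPA library 2 or 3, TRIUR3_09462 also without 20 DPA library 1, and TRIUR3_06231 also without 20 DPA library 3. TRIUR3_17462 and TRIUR3_06231 were not called after scaling (log2 changes 0.78 and 0.98). TRIUR3_24481 was called without any 1 library of the endosperm fit and after scaling (log2 change 2.29), but not with the compared groups fitted alone (adjusted p = 0.103; range over 21 alternatives 5.45e-06 to 0.103). After scaling 3 of 35 tested members were called higher, TRIUR3_24481, TRIUR3_09462 and TRIUR3_31885, and TRIUR3_09883 was called lower, with 8.02% and 3.66% of all genes tested. The median FPKM of the 84 leaf-abundant genes was 1.18, 3.69 and 1.33 in the 25 DPA libraries, against 0 to 0.74 at 20 DPA.

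Over the whole period, 25 against 5 DPA, 27 of the 42 tested members fell (64.3%) and 4 rose (9.52%), with 72% and 3.6% of all genes tested. The median log2 change was -1.57 for the tested members and -1.99 for all genes. TRIUR3_26868, TRIUR3_05298, TRIUR3_22128 and TRIUR3_30416 were listed at 0 in all 25 DPA libraries, with adjusted p of 1.48e-08, 2.56e-09, 2.36e-08 and 5.73e-09 in limma. At 5 DPA their libraries held 13.26 to 30.48 FPKM. TRIUR3_30416 passed the filter through 5 DPA alone. TRIUR3_27317 had 0, 2.17 and 0.73 FPKM at 25 DPA, against 21.07, 20.26 and 20.27 at 5 DPA (log2 change -3.61, SE 0.47).

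TRIUR3_24481 was the largest rise over this period, with 2.12, 7.85 and 19.49 FPKM at 25 DPA, against 0.36, 0.17 and 0.38 at 5 DPA (log2 change 2.67, SE 0.52, adjusted p = 0.000327). Its 15 DPA libraries held 1.53, 0.88 and 3.09 FPKM, and its leaf libraries 1.10, 2.29 and 1.73. The other rises were weak: TRIUR3_07596, TRIUR3_10994 and TRIUR3_35037 reached at most 4.85 FPKM at 25 DPA. After scaling 10 of 35 tested members were called lower and 5 higher, with 25.6% and 9.38% of all genes tested, and TRIUR3_17462 and TRIUR3_28409 were then among the higher ones. Without 5 DPA library 1, 18 members were called in place of 31. Here too, members reaching 1 FPKM only in the 5 DPA libraries went untested. With no library left out, 75.6% of all genes tested were called in either direction.

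Endosperm and flag leaf of the same day, 10 DPA, were compared next. Of the 41 tested members 26 were called lower in endosperm (63.4%) and 2 higher (4.88%), with 27.1% and 21.7% of all genes tested. The median log2 difference was -1.74 for the tested members and -0.0050 for all genes. After median-ratio scaling 24 of 40 tested members were lower and 4 higher, with 25.9% and 28.8% of all genes tested. No test of the family against other genes was made, so this contrast with the background is a description.

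TRIUR3_29889 was listed at 0 in all 10 DPA endosperm libraries, against 47.62, 61.43 and 107.26 FPKM in leaf (adjusted p = 1.62e-05), and it was at most 1.35 FPKM in any endosperm library. TRIUR3_03043 was listed at 0 in the same endosperm libraries, against 16.81, 28.87 and 44.69 FPKM in leaf (adjusted p = 6.04e-05). TRIUR3_26595 was listed at 0 in all 15 endosperm libraries, against 11.81, 18.48 and 35.29 FPKM in leaf (adjusted p = 0.00012). These genes passed the filter through leaf alone, so their direction was given in advance. TRIUR3_26595 is among 5 members, 6.94% of the family, that were above 0 in leaf alone, as were 2.49% of all genes. The others were TRIUR3_24021, TRIUR3_16697, TRIUR3_13881 and TRIUR3_06407, of which TRIUR3_24021 was also called lower in endosperm.

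Other members abundant in leaf were detected at lower levels in 10 DPA endosperm. TRIUR3_17462 had 0.83, 0.59 and 0.21 FPKM in 10 DPA endosperm, against 20.29, 42.88 and 177.09 in leaf (log2 difference -5.18, SE 0.73, adjusted p = 0.00064). TRIUR3_31797 had 3.23, 1.45 and 1.73 FPKM in endosperm, against 23.85, 62.09 and 108.00 in leaf (log2 difference -4.19, SE 0.56). TRIUR3_04352 had 5.02, 2.78 and 5.11 FPKM in endosperm, against 44.44, 76.26 and 85.87 in leaf (log2 difference -3.70, SE 0.39). TRIUR3_30416 had 0.35, 0 and 0 FPKM in endosperm, against 5.51, 36.05 and 87.33 in leaf (log2 difference -4.65, SE 0.86). The tissues did not overlap in any of these genes. For TRIUR3_17462 and TRIUR3_30416, which passed the filter through leaf alone, this was given in advance.

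Members higher in endosperm were few. TRIUR3_26868 had 20.58, 20.78 and 21.22 FPKM in endosperm and was listed at 0 in all 3 leaf libraries (adjusted p = 2.19e-05). TRIUR3_23069 had 4.76, 1.49 and 4.10 FPKM in endosperm and was likewise at 0 in leaf (adjusted p = 0.00184). In this fit TRIUR3_26868 and TRIUR3_23069 passed the filter through endosperm alone. TRIUR3_27317 had 14.59, 11.73 and 11.26 FPKM in endosperm, against 2.77, 7.42 and 8.07 in leaf, and was called only after scaling (log2 difference 1.03, SE 0.43, adjusted p = 0.0815 as deposited). For the abundant TRIUR3_22206 the tissues overlapped, at 34.28, 33.56 and 30.71 FPKM in endosperm and 15.57, 38.35 and 40.52 in leaf (log2 difference 0.17, SE 0.41, adjusted p = 0.762). TRIUR3_21369 overlapped as well, at 20.30 to 25.92 FPKM in endosperm and 8.72 to 102.34 in leaf.

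**Figure D5:**
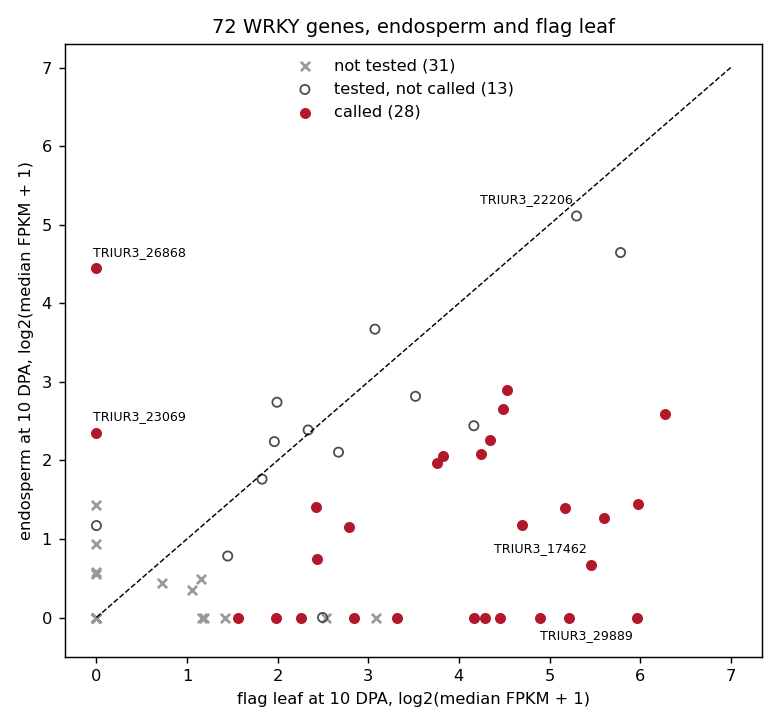
Median FPKM of each of the 72 WRKY genes in 10 DPA endosperm (vertical) and flag leaf (horizontal) as log2(FPKM + 1), 3 libraries each; the dashed line marks equal levels. The called genes lie below the line except TRIUR3_26868 and TRIUR3_23069, which are at 0 in leaf.

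The leaf libraries differed among themselves. Of 36 members above 0 in all 3, library 1 was lowest and library 3 highest for 28 (77.8%), as for 51.2% of 13266 genes. The median ratio of library 3 to library 1 was 2.92 over 36 members and 2.22 over 13656 genes. Without leaf library 1, 2 or 3 the number of called members was 18, 10 and 12 in place of 28. The filter still asked for 1 FPKM in 3 libraries, so members reaching it only in the 3 leaf libraries went untested there. The lower counts are therefore not a measure of library differences alone. With no library left out, 48.8% of all genes tested were called in either direction. In leaf library 1 alone, 31 members lay above every 10 DPA endosperm library and 14 below, against 45 and 7 in leaf library 3. The same counts over all genes are not given here, so these describe the members only.

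Genes that shape the branches of starch, and TuGAMYB, were followed alongside. These were 3 isoamylase genes, which trim branches from amylopectin, 4 starch branching enzyme genes and TuGAMYB (TRIUR3_27104). All 8 were tested as deposited. Of these 8 genes, 3 rose and 2 fell at 10 against 5 DPA, and 3 fell and 0 rose at 15 against 10 DPA (0 higher at an unadjusted p under 0.05 by limma). At 20 against 15 DPA 7 fell and 0 rose, and at 25 against 20 DPA 6 rose and 0 fell (0 at an unadjusted p under 0.05 in either case). Among all genes tested the shares higher and lower were 3.16% and 45.6%, 1.28% and 16.7%, 0.69% and 43%, and 35.3% and 0.154% over the 4 intervals. The genes were picked by kind and compared with no test, so these counts are a description. After median-ratio scaling the counts were 3 higher and 1 lower, then 0 and 0, then 0 higher and 5 lower, then 0 and 0, with 7 of the 8 tested, beside shares higher and lower of 5.6% and 7.84%, 3.76% and 7.86%, 4.7% and 13.7%, and 8.02% and 3.66% of all genes tested. In that setting limma gave 1 gene higher and 2 lower at 15 against 10 DPA, and 2 higher at 25 against 20 DPA, at an unadjusted p under 0.05.

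TuISA1 had 55.36, 45.66 and 66.52 FPKM at 10 DPA, against 43.42, 37.58 and 51.80 at 5 DPA, and the groups overlapped. It had 0, 0.39 and 1.79 FPKM at 20 DPA, against 21.47, 19.21 and 20.35 at 15 DPA (log2 change -3.76, SE 0.58). TuSBEIIb had 128.29, 115.90 and 150.28 FPKM at 10 DPA, against 2.27, 4.07 and 3.56 at 5 DPA (log2 change 4.96, SE 0.52). TuGAMYB (TRIUR3_27104) had 41.55, 44.79 and 56.68 FPKM at 10 DPA, against 12.07, 13.59 and 9.94 at 5 DPA (log2 change 1.92, SE 0.66, adjusted p = 0.0253). No member of the WRKY family above 10 FPKM was called higher over that interval as deposited. After median-ratio scaling TRIUR3_26868 was called higher (log2 change 1.25, adjusted p = 0.00567 in limma).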

How the data were processed

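The authors' deposited table gives 1 FPKM value per gene and library. Bowtie 0.12.2 is named in the submitters' processing notes, while sources used here give neither the build and annotation nor the counting program. All 18 value columns were used. Values were analysed as log2(FPKM + 1) in R 4.3.3 with limma 3.58.1 (trended moderated variances), with 1 fit of 15 endosperm libraries and 1 of 6 libraries for endosperm against leaf, tested on simulated data. The filter (1 FPKM or more in 3 or more libraries) left 19418 and 16709 genes, with 42 and 41 members. Depth is unknown, so no counting interval is given, and p-values measure the spread between 3 libraries a group.

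Members and lists were chosen with earlier results of these data known. Named are TRIUR3_26868, the 8 members highest in any endosperm stage, the 5 highest in leaf, and per comparison up to 5 rises and 5 falls among called members with a mean of at least 5 FPKM and no overlap. Other members, named to account for small counts, were chosen after their values were seen. Alternatives covered pseudocount, filter, scaling, the samples fitted and each library left out.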

Additional observations from a re-analysis of the deposited data

How the results depend on the processing

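Counts of called WRKY genes are given here in the order of the 5 endosperm comparisons (10 against 5 DPA: 24; 15 against 10: 3; 20 against 15: 17; 25 against 20: 13; 25 against 5: 31), then the F-test (40) and leaf (28). Median-ratio scaling gave 7, 1, 7, 4, 15 and 20, and left leaf at 28. A pseudocount of 5 gave 13, 1, 2, 7 and 17. Without a filter 9 of 67 tested members were called at 20 against 15 DPA, all lower, with 7509 of 26445 genes called lower. With a filter at 5 FPKM 15 members were called at 10 against 5 DPA. The compared groups fitted alone gave 5 at 15 against 10 DPA and 0 at 25 against 20 DPA (4 at an unadjusted p under 0.05 by limma). Leaving out 1 library gave 14 to 28, 2 to 5, 5 to 20, 1 to 27, 18 to 33, 32 to 41, and 10 to 24 for leaf. The filter stayed at 3 libraries in these fits, so part of the lower counts can come from members no longer tested. Shares of all genes called are given for the fits as deposited and after median-ratio scaling. Without a filter, counts over all genes are given for 20 against 15 and 25 against 20 DPA only. A pseudocount of 0.1, total FPKM scaling and, for leaf, all 18 libraries in 1 fit kept every count within 1.5 times. Of the named genes, TRIUR3_28409 at 20 against 15 DPA reversed, to a log2 change of 0.60 after median-ratio scaling. A pseudocount of 5 ended the calls of TRIUR3_04352, TRIUR3_27317 and TRIUR3_28409 at 20 against 15 DPA, with log2 changes of -1.09, -0.89 and -0.91. The cause was not tested. No paired analysis was possible because the table's columns carry no sample numbers. FPKM values give no depth, so genes listed at 0 may be undetected.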

Other observations

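Beside the WRKY family, 4 other transcription factor classes of the table were counted. At 10 against 5 DPA, 12 of 58 tested NAC genes rose and 23 fell, 7 of 58 bZIP genes rose and 20 fell, 6 of 49 MYB genes rose and 25 fell, and 2 of 18 ERF genes rose and 4 fell. Of all genes tested 3.16% rose and 45.6% fell. In endosperm against flag leaf, 13 of 54 tested NAC genes were higher and 24 lower, 12 of 52 bZIP genes higher and 14 lower, 16 of 41 MYB genes higher and 11 lower, and 8 of 17 ERF genes higher and 2 lower. Of all genes tested 21.7% were higher and 27.1% lower. The differences between these classes and the WRKY family were not tested. TRIUR3_22206 was most like the C2H2 gene TRIUR3_17709 over the 15 endosperm libraries, with a Pearson r of 0.994 on the log2 scale. The bZIP gene TRIUR3_33804 (r = 0.992) and the bHLH gene TRIUR3_13265 (r = 0.990) followed. Each of the WRKY genes TRIUR3_13881, TRIUR3_18951 and TRIUR3_34281 was above 0 in 1 library only, at 5.01, 1.15 and 0.77 FPKM, with all values identical to those of another gene.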
